A study of Rattus norvegicus with 16 samples.

Results

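Zinc finger protein genes, named Zfp in rodents, were examined in primary hepatocytes of male Sprague Dawley rats that had been treated with SQ1 or pravastatin. Members were all genes whose rat symbol starts with Zfp and a digit and for which some probe was called well above background by the scanner software in 6 or more of 32 channels (2 on each of 16 arrays). Of 159 such genes with a probe, 154 met the rule, out of 20395 genes tested, of which 11937 had a symbol. The members just inside the rule were Zfp352, Zfp579 and Zfp385d, detected in 6, 7 and 12 channels, and 145 members were detected in 32 of 32. Zfp521, with 4 channels, and Zfp475 and Zfp483, with 3 each, lay just outside, followed by Zfp658l1 with 1 and Zfp286a with 0.

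Hepatocytes in Williams Medium E received 100 µM SQ1 or 30 µM pravastatin, or were left untreated, from 48 hours after plating and for 48 hours. Each array held RNA of 1 treated and 1 untreated culture, with 8 arrays per drug, 4 in each dye orientation. The labels give SQ1 by its code name alone, and pravastatin is a statin, an inhibitor of HMG-CoA reductase. Drug names follow the sample labels and the scanner data. The deposited ratios under each label instead match the same-numbered array of the opposite drug. Which assignment is right was not tested. If that of the deposited ratios is, the drug names change places in all results given here. GEO's design text calls the arrays biological replicates and counts 8 control replicates, without naming animals or separate cultures, so that p-values measure the spread between these samples. Same-numbered arrays of both drugs carry the same control number, and both sets of ratios are therefore taken to share their untreated cultures. Values are log2 ratios, treated over untreated, given ± the model's SE from 8 arrays a drug (limma), and a gene was called at an adjusted p under 0.05 over all genes tested.

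Zinc finger proteins hold zinc in small folds that contact DNA, RNA or other proteins. Many vertebrate members carry a KRAB domain, through which they recruit the corepressor TRIM28 and silence chromatin, often at transposable elements and imprinted genes. A separate CCCH type, to which Zfp36 (tristetraprolin) belongs, binds AU-rich elements in mRNA and starts its decay.

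Promoters of 4 members are shown because their genes had large changes with SQ1 in either direction, Zfp354a and Zfp52 downwards and Zfp593 and Zfp37 upwards. Each sequence runs 5′ to 3′ from 250 bases before to 50 after the RefSeq start in build GRCr8, in lower case, with CCAAT boxes (CCAAT) and GC boxes (GGGCGG) on either strand in capitals.
Zfp354a, chr10:35897013-35897312, plus strand: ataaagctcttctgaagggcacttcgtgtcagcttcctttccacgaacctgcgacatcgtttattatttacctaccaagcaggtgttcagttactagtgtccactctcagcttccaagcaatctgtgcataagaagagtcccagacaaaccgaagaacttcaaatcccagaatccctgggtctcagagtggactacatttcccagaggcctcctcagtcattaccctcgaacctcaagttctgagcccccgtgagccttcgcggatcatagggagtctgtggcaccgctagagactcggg
Zfp52, chr1:70007935-70008234, plus strand: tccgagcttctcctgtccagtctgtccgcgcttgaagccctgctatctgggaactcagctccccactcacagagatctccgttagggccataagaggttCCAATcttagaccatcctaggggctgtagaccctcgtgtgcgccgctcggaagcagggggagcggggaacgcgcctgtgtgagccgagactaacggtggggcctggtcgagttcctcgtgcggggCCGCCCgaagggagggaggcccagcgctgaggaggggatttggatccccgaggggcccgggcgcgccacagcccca
Zfp593, chr5:151748675-151748974, minus strand: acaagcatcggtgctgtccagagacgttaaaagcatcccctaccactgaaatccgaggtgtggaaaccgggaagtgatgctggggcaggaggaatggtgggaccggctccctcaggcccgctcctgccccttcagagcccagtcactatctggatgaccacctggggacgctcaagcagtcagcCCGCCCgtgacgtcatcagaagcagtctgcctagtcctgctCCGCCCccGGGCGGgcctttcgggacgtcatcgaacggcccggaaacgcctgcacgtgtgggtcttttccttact
Zfp37, chr5:80654156-80654455, minus strand: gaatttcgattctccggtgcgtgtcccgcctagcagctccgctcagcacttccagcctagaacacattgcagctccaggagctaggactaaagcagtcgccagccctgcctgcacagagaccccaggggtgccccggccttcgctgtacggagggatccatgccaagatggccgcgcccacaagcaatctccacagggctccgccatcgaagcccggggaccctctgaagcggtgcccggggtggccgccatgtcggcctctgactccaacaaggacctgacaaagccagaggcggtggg
Zfp593 held 3 GC boxes and no CCAAT box, Zfp52 held 1 of each, and neither motif lay in the windows of Zfp354a and Zfp37. RefSeq promoters were matched by symbol for 128 of the 154 members. CCAAT occurred in 40.6% of the members' promoters and in 38.5% of the 9758 promoters of genes tested. GGGCGG was present in 46.1% of the members' promoters and in 56.4% of those of genes tested, and the 2 motifs can share letters at their ends. Among all 33469 promoters of the table, 37.5% held CCAAT and 33.1% held GGGCGG. Members that fell with SQ1 had CCAAT in 35 of 72 promoters (48.6%) and GGGCGG in 28 (38.9%), while those that rose had them in 6 (30%) and 12 (60%) of 20. TATAAA was found in 10.2% of the members' promoters and 8.94% of those of genes tested, and CACGTG in 7.81% and 8.86%. The cAMP response element was in 3.12% and 2.93%, and the site of the human activator ZNF143 in 1.56% and 0.615%. All were searched on both strands. These are matches of letters within the window and were not tested.

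With SQ1, most members were lower than in untreated cells. Of the 154 genes, 85 fell (55.2%) and 22 rose (14.3%), and 47 did not pass the test. Among all genes tested, 31.2% fell and 32.7% rose, 63.9% in all, so the members' share called, 69.5%, was close to the background while its direction was mostly downward. The members' median log2 ratio was -0.11, with quartiles of -0.25 and 0.01, beside a median of 0.01 over all genes. On each of the 8 SQ1 arrays the members' median was below 0, from -0.13 to -0.09, and between 103 and 116 of the 154 genes were lower in the treated culture. Changes were small: 6 members passed a 1.5-fold change and all 6 fell, where 4.43% of all genes fell and 3.05% rose by that much, 7.49% in all. Called falls were seen on 8 of 8 arrays in 58 members, and called rises in 13. The share of all genes that kept 1 sign in this way was not counted. When the arrays were scaled to a common spread, 39 members fell (25.3%, beside 15.7% of all genes) and 9 rose (5.84%, beside 16.1%). Of the genes named below, Zfp354a, Zfp281, Zfp148, Zfp422, Zfp410, Zfp592, Zfp260, Zfp451, Zfp54, Zfp36l2, Zfp503, Zfp524 and Zfp64 then lost their SQ1 call (adjusted p between 0.06297 and 0.802).

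**Figure D1:**
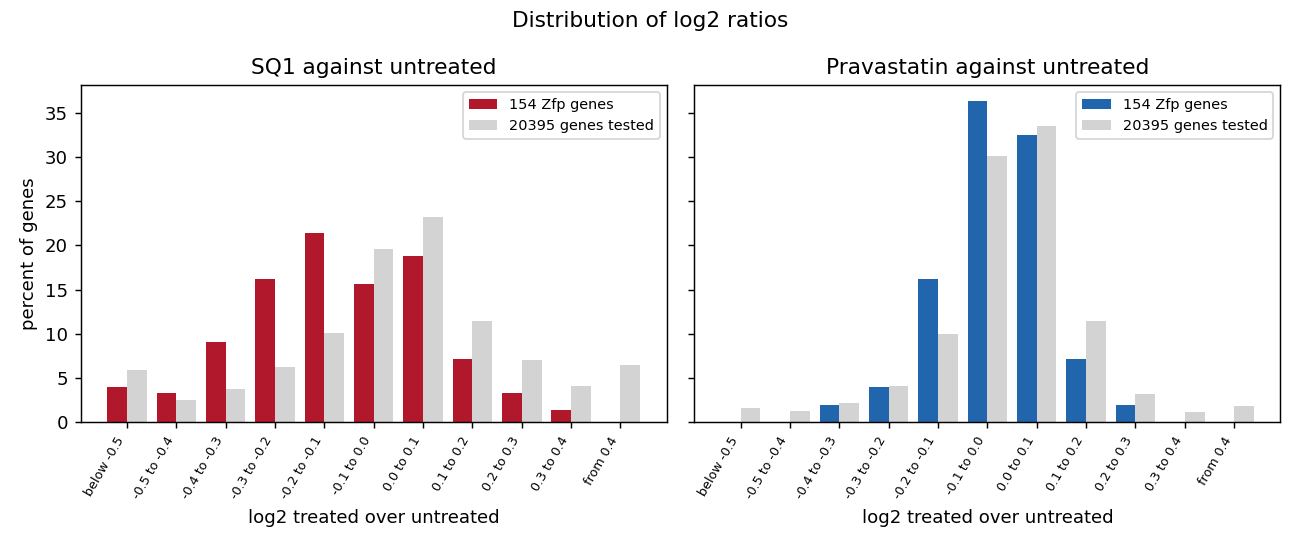
Distribution of log2 treated over untreated in bins of 0.1, as percent of 154 Zfp genes (coloured) and of 20395 genes tested (grey), for SQ1 (left) and pravastatin (right). With SQ1, 21.4% of Zfp genes lie between -0.2 and -0.1, against 10.1% of all genes, and none lies above 0.4, where 6.42% of all genes do.

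Zfp189, a KRAB zinc finger gene, fell most with SQ1. Its processed signal ran from 3216 to 4542 in SQ1-treated cultures with a median of 3679, and from 7178 to 9668 with a median of 8693 in the untreated cultures on the same arrays. The 2 ranges did not overlap. The log2 ratio was -1.37 at its lowest, -1.15 at the median and -0.98 at its highest array, and the fitted value was -1.19 ± 0.05, a 2.27-fold fall (adjusted p = 2.285e-13).

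Zfp354a, known as Kid-1 and first described in rat kidney as a KRAB repressor, had the next largest fall. SQ1-treated cultures gave 10730 to 13360 with a median of 11480, and untreated cultures 20340 to 30360 with a median of 24430. Every treated culture was below every untreated one. The ratio was -1.12 ± 0.04, a 2.17-fold fall (adjusted p = 2.883e-14), with arrays between -1.29 and -0.92. After scaling to a common spread the value was -0.85 (adjusted p = 0.06297).

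Zfp52 was at 600.3 to 818.9 (median 653.3) in SQ1-treated and 993.4 to 1512 (median 1256) in untreated cultures. The fall was 1.8-fold, with a log2 ratio of -0.85 ± 0.08 (adjusted p = 2.118e-08). By the control numbers of the files the arrays fall into 2 sets, which also differ in scan day and slides. They are called culture series here, although no label says that their cultures were set up apart. For Zfp52 the 4 arrays of the second series gave -1.09 and the 4 of the first -0.60, a difference of -0.49 (adjusted p = 3.849e-05). The neighbours of Zfp52 in gene order, Zfp53 and Zfp54, fell as well, by 0.26 and 0.11 on the log2 scale.

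Zfp395, whose human counterpart encodes a hypoxia-inducible transcription factor, gave 432.2 to 617.3 in SQ1-treated and 697.6 to 940.5 in untreated cultures, again without overlap. Its ratio was -0.71 ± 0.06 (adjusted p = 6.319e-09), at -0.87 in the second and -0.55 in the first culture series. A second, dimmer probe of Zfp395 gave 0.00 ± 0.03 (adjusted p = 0.915), so the fall rests on 1 probe. Zfp9 fell by 0.62 ± 0.04, with 165.4 to 222 in SQ1-treated and 255.1 to 381 in untreated cultures. Zfp266, a KRAB gene, fell by 0.61 ± 0.02, with 3261 to 4407 against 5056 to 6650. A second, dimmer probe of Zfp266 was at -0.06 ± 0.04 with SQ1 (adjusted p = 0.1476) and at 0.14 ± 0.04 with pravastatin (adjusted p = 0.003732), so this fall too rests on 1 probe. Neither Zfp9 nor the Zfp266 probe used had overlapping signals between treated and untreated cultures.

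Processed signals of treated and untreated cultures were apart in this way for 13 of the 154 members with SQ1, all lower (11.4% of all genes in either direction), and for 0 members with pravastatin (2.2% of all genes).

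The rises with SQ1 were smaller. Zfp593, whose yeast counterpart takes part in the export of the large ribosomal subunit, gave 3192 to 4010 (median 3631) in SQ1-treated and 2487 to 3331 (median 2658) in untreated cultures. The ranges overlapped, while the ratio within each array was above 0 on all 8, from 0.14 to 0.60. The fitted value was 0.37 ± 0.04 (adjusted p = 3.349e-07). A second, dimmer probe of Zfp593 gave 0.12 ± 0.04 (adjusted p = 0.02365). Zfp37, a KRAB gene, was at 256.2 to 368.3 in SQ1-treated and 196.2 to 279.3 in untreated cultures, with arrays from 0.19 to 0.63 and a ratio of 0.37 ± 0.04 (adjusted p = 3.264e-07). Of the other called rises seen on every array, the 6 largest were those of Zfp428 (0.30), Zfp418 (0.27), Zfp36l2 (0.25), Zfp524 (0.23), Zfp64 (0.20) and Zfp641 (0.20). A second, dimmer probe of Zfp418 was at 0.06 ± 0.04 (adjusted p = 0.1227) and was not called. For Zfp641 a second probe fell with SQ1, at -0.19 ± 0.05 (adjusted p = 0.003796), and the mean of both probes was 0.00 (adjusted p = 0.9357).

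**Figure D2:**
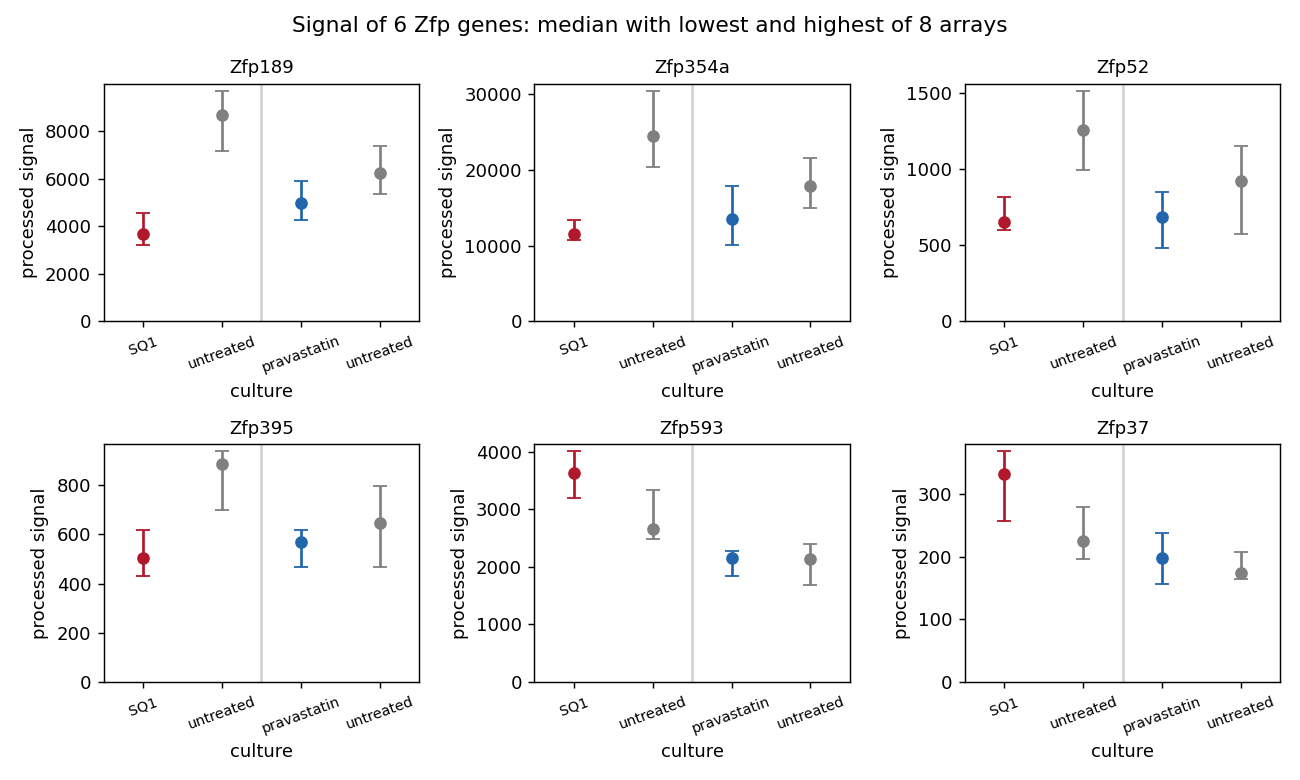
Processed signal (arbitrary units, linear axis from 0) of 6 Zfp genes in treated and untreated cultures, SQ1 arrays left of the line and pravastatin arrays right of it. Points are medians and bars span the lowest to the highest of 8 arrays. Zfp189, Zfp354a, Zfp52 and Zfp395 show no overlap between SQ1 and untreated, while pravastatin overlaps with untreated in all 6.

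With pravastatin, 40 members fell (26%) and 18 rose (11.7%), and 96 did not pass. Over all genes 19.7% fell and 19.4% rose, 39.1% in all, beside 37.7% of the members. The members' median was -0.02 and that of all genes 0.00, and the 8 array medians lay between -0.04 and -0.01. No member reached a 1.5-fold change, which 1.96% of all genes did. On 8 of 8 arrays, 21 members had a called fall and 10 a called rise, again without a count over all genes. With the replicate number as a fixed block, 11 in place of 18 members rose.

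The genes with the largest falls under pravastatin were Zfp52, Zfp354a and Zfp189, with log2 ratios of -0.39 ± 0.08, -0.35 ± 0.04 and -0.33 ± 0.05 (adjusted p = 0.0005964, 9.463e-07 and 2.02e-05). For Zfp189 the signal was 4279 to 5907 in pravastatin-treated and 5337 to 7367 in untreated cultures, and for Zfp354a 10070 to 17880 and 14930 to 21500. Untreated cultures thus gave higher signals of both genes on the SQ1 arrays, which are other slides. The ranges overlapped for both genes, although each array gave a ratio below 0, from -0.56 to -0.14 for Zfp189 and from -0.62 to -0.18 for Zfp354a. Scaling to a common spread ended the call of Zfp354a here too (adjusted p = 0.07432), and those of Zfp64, Zfp148, Zfp281, Zfp36l2, Zfp410, Zfp592 and Zfp91 (adjusted p between 0.0535 and 0.1629). Their values were larger in that setting, at -0.82 for Zfp354a, 0.42 for Zfp64, -0.32 for Zfp148, -0.51 for Zfp281, -0.38 for Zfp36l2, -0.30 for Zfp410, -0.29 for Zfp592 and -0.59 for Zfp91. With slide as a random block the pravastatin calls of Zfp410 (adjusted p = 0.06917), Zfp36l2 (0.05451), Zfp322a (0.06335), Zfp64 (0.113) and Zfp709l1 (0.09103) were lost, and the SQ1 call of Zfp503 (0.07588). Median centring in place of loess ended the pravastatin calls of Zfp36l2 (0.1436), Zfp410 (0.09119), Zfp592 (0.08516), Zfp322a (0.09821) and Zfp709l1 (0.08465), and the SQ1 call of Zfp503 (0.301). Zfp503 (Nolz-1), a corepressor of development, was at -0.26 ± 0.03 and Zfp667, a KRAB gene, at -0.20 ± 0.03. Zfp598, the ubiquitin ligase that marks collided ribosomes, and Zfp422 stood at -0.17, and Zfp111 at -0.14, each below 0 on all 8 arrays.

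Zfp39 had the largest rise with pravastatin. Its signal was 89.49 to 135.8 (median 110.5) in pravastatin-treated and 57.65 to 92.07 (median 79.6) in untreated cultures, nearly without overlap. The ratio was 0.28 ± 0.04 (adjusted p = 3.452e-05), from 0.06 to 0.45. A second, dimmer probe of Zfp39 gave 0.10 ± 0.03 (adjusted p = 0.006834). Zfp14 followed at 0.24, Zfp428 at 0.21 and Zfp641 at 0.19, of which Zfp14 and Zfp641 encode KRAB proteins. Their second, dimmer probes were at 0.07 ± 0.02 for Zfp14 (adjusted p = 0.01353) and 0.02 ± 0.05 for Zfp641 (adjusted p = 0.789, not called). Smaller rises were those of Zfp90 (0.13), Zfp64 (0.12), Zfp322a (0.12) and Zfp709l1 (0.11, adjusted p = 0.04484). The call of Zfp709l1 was lost without any 1 of replicates 2 to 8, and that of Zfp64 without replicate 1 (adjusted p = 0.07288) or 7 (adjusted p = 0.0807). For Zfp322a it was lost without replicate 8 (adjusted p = 0.05171). With the fixed replicate block Zfp90 was at 0.10 (adjusted p = 0.1432) and Zfp709l1 at 0.10 (adjusted p = 0.2964).

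**Figure D3:**
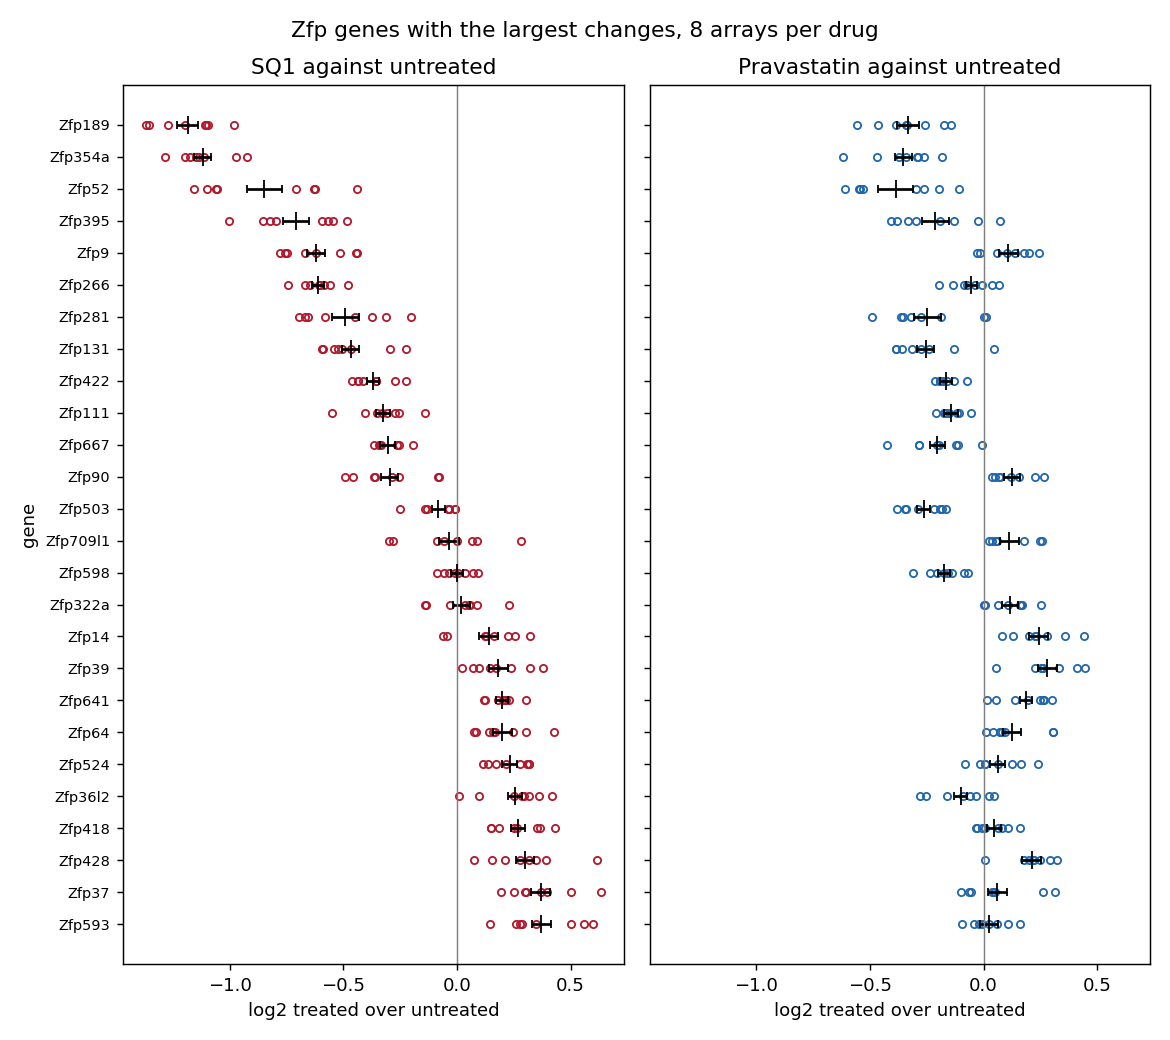
Log2 treated over untreated of the 26 Zfp genes with the largest called changes that kept their sign on all 8 arrays of at least 1 drug, SQ1 left and pravastatin right, sorted by the SQ1 value. Circles are single arrays, and black ticks with bars are the fitted value ± SE. With SQ1 all 8 arrays of Zfp189 and Zfp354a lie at or below -0.92, where single arrays of Zfp52 and Zfp395 also lie.

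The 2 drugs were given at different doses, their ratios share untreated cultures, and no slide held both drugs, so a drug, dose or slide difference cannot be told apart. The fitted difference of SQ1 minus pravastatin was below 0 with a call in 60 members (39%) and above 0 in 10 (6.49%), 45.5% in all, beside 19.5% and 18.5% of all genes, 38% in all. Its median over the members was -0.09 and over all genes 0.00. The difference was -0.85 ± 0.07 for Zfp189 (adjusted p = 1.348e-08), -0.77 ± 0.05 for Zfp354a, -0.73 ± 0.06 for Zfp9, -0.56 ± 0.03 for Zfp266, -0.50 ± 0.08 for Zfp395, -0.47 ± 0.05 for Zfp426, -0.46 ± 0.11 for Zfp52 and -0.42 ± 0.05 for Zfp90. On the positive side stood Zfp91, a ubiquitin ligase, at 0.38 ± 0.09, Zfp36l2 at 0.36 ± 0.04, Zfp593 at 0.35 ± 0.06 and Zfp37 at 0.31 ± 0.06. Second, dimmer probes gave -0.20 for Zfp266, -0.21 for Zfp426, 0.19 for Zfp593 and 0.03 for Zfp395 (adjusted p = 0.6918, not called). After scaling to a common spread, which removes a difference in overall size between the drugs by construction, 16 members were below 0 and 4 above 0 with a call. These were 10.4% and 2.6%, beside 5.94% and 6.53% of all genes. The share called, 13%, was close to the 12.5% of all genes. In that setting the differences of Zfp189 (-0.39, adjusted p = 0.1131), Zfp354a (-0.03, adjusted p = 0.9759), Zfp395 (-0.19, adjusted p = 0.4456), Zfp52 (-0.06, adjusted p = 0.8582), Zfp91 (0.66, adjusted p = 0.2053) and Zfp36l2 (0.56, adjusted p = 0.2511) were not called.

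The members called in opposite directions with the drugs, whose ratios share untreated cultures, were Zfp9, Zfp46, Zfp90, Zfp260, Zfp317, Zfp955a and Zfp36l2, the last of which is described below. Zfp9 was at -0.62 with SQ1 and at 0.11 ± 0.04 with pravastatin (adjusted p = 0.04081), and Zfp90, a KRAB gene, at -0.30 and 0.13. Zfp260, known from the mouse as a cofactor in heart muscle, was at -0.21 ± 0.03 with SQ1 and at 0.15 ± 0.03 with pravastatin, and its difference was -0.37 ± 0.05 (adjusted p = 1.079e-05; 0.05974 after scaling). Zfp9 was above 0 on 6 and Zfp260 on 7 of the 8 pravastatin arrays, Zfp90 on all. In the first culture series alone the pravastatin rises of Zfp9 (0.07, adjusted p = 0.4301) and Zfp90 (0.12, adjusted p = 0.098) were not called. Zfp46 was at -0.29 ± 0.03 with SQ1 and 0.11 ± 0.03 with pravastatin, and a second, dim probe was called with neither drug. Zfp317 was at -0.21 and 0.12, and Zfp955a at -0.10 and 0.08. The share of all genes called in opposite directions was not counted, so the list is not read as a trait of the members. These genes were singled out after their values were seen.

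The CCCH members that bind AU-rich mRNA did not move as 1 group. Zfp36 was at 251.9 to 565.9 (median 378) in SQ1-treated and 388 to 645.6 (median 485.4) in untreated cultures. Its ratio was -0.38 ± 0.07 with SQ1 (adjusted p = 5.262e-05), below 0 on all 8 arrays, and -0.04 ± 0.07 with pravastatin (adjusted p = 0.6974). The SQ1 value was -0.57 in the second and -0.20 in the first culture series. Zfp36l1 was at -0.25 ± 0.06 with SQ1 and at -0.19 ± 0.06 with pravastatin. In the first series alone neither was called (adjusted p = 0.257 and 0.3414), and the second series gave -0.39 and -0.26. Zfp36l2 rose with SQ1, by 0.25 ± 0.03, with 1079 to 1743 in SQ1-treated and 853.4 to 1395 in untreated cultures, and was at -0.10 ± 0.03 with pravastatin (adjusted p = 0.01312). Of 20 measured genes of AU-rich mRNA decay and its targets, 11 fell (55%, beside 31.2% of all genes) and 5 rose (25%, beside 32.7%) with SQ1. With pravastatin 3 fell and 1 rose, 20% called beside 39.1% of all genes. Among them Cyp7a1, whose enzyme starts bile acid production, was at -1.74 ± 0.13 with SQ1 and -1.70 ± 0.13 with pravastatin, and Hnrnpd, which binds AU-rich RNA, at 0.40 ± 0.03 and -0.07 ± 0.03 (adjusted p = 0.09319). The chemokine Cxcl1 was at -1.16 ± 0.09 with SQ1 and -0.30 ± 0.09 with pravastatin, and the early response gene Ier3 was at -0.36 ± 0.03 and 0.07 ± 0.03.

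A list of genes known to encode KRAB proteins held 40 of the members, and it need not cover every KRAB member. With SQ1, 22 of the 40 fell (55%, beside 55.2% of all members and 31.2% of all genes) and 8 rose (20%, beside 32.7%). Their median was -0.13. With pravastatin 7 fell (17.5%, beside 26% of all members and 19.7% of all genes) and 6 rose (15%, beside 19.4%), with a median of 0.01. Beyond those given above, Zfp426 was at -0.46 with SQ1, with 406.7 to 512.4 in treated and 541.2 to 690.6 in untreated cultures, and Zfp57, which protects imprints in mouse embryos, at -0.29 ± 0.07, with -0.47 in the second and -0.12 in the first series (adjusted p = 0.232). Trim28, the corepressor that KRAB domains recruit, was at -0.18 ± 0.03 with SQ1 (adjusted p = 0.0002238; -0.08 in the second and -0.27 in the first series) and -0.08 ± 0.03 with pravastatin (adjusted p = 0.07277). Of 18 measured genes for corepressors and heterochromatin, 7 fell (38.9%) and 6 rose (33.3%) with SQ1, beside 31.2% and 32.7% of all genes. With pravastatin 0 fell and 6 rose (33.3%), beside 19.7% and 19.4% of all genes. Cbx5, heterochromatin protein 1 alpha, was at 0.35 ± 0.04 with SQ1 and 0.17 ± 0.04 with pravastatin, and the deacetylase gene Hdac1 was at -0.27 ± 0.02 with SQ1.

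Among 16 members known as activators or chromatin cofactors, 9 fell (56.2%) and 2 rose (12.5%) with SQ1, beside 31.2% and 32.7% of all genes. With pravastatin 6 fell (37.5%) and 1 rose (6.25%), beside 19.7% and 19.4% of all genes. Zfp281, which binds GC-rich promoters and is known from stem cells, was at -0.49 ± 0.06 with SQ1 and -0.25 ± 0.06 with pravastatin, and its relative Zfp148 at -0.37 ± 0.03 and -0.14 ± 0.03. Zfp131, a BTB factor, was at -0.47 ± 0.04 and -0.26 ± 0.04, and had 5116 to 6798 in SQ1-treated and 7023 to 9323 in untreated cultures. Zfp410, which keeps the remodeller gene Chd4 active, was at -0.21 ± 0.04 and -0.12 ± 0.04. Zfp592 fell by 0.26 and Zfp644 by 0.15 with SQ1. The call of Zfp644 was lost with median centring (-0.08, adjusted p = 0.1164), and its second probe was at -0.06 ± 0.06 (adjusted p = 0.4547). The general promoter factor Zfp143 was at -0.01 ± 0.03 with SQ1 and 0.00 ± 0.03 with pravastatin, neither called. Zfp384 was at 0.13 ± 0.03 with SQ1, which the fixed replicate block left at 0.10 (adjusted p = 0.08019).

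In the group of 5 genes for ribosome and RNA handling, 2 fell and 1 rose with SQ1, and 1 fell with pravastatin. Besides Zfp593, Zfp830, a splicing-related gene, fell by 0.27 ± 0.03 with SQ1 and Zfp622, which matures the large ribosomal subunit in yeast, was at 0.02 ± 0.03. Of 3 ligases of ubiquitin or SUMO, 1 fell with SQ1 and 2 with pravastatin. Among all genes, 31.2% fell and 32.7% rose with SQ1, and 19.7% and 19.4% with pravastatin. Groups of 5 and 3 genes are too small for shares to be compared. Zfp91 was at 0.10 ± 0.06 with SQ1 (adjusted p = 0.1769) and at -0.29 ± 0.06 with pravastatin, Zfp598 at 0.00 ± 0.03 and -0.17 ± 0.03, and Zfp451, a SUMO ligase, at -0.20 ± 0.04 and -0.06 ± 0.04.

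Changes of the members depended on the signal level. All genes were split into 3 groups of equal number by mean log2 signal, which put 38 members in the dim group (up to 7.77), 84 in the middle and 32 in the bright group (from 11.4). With SQ1, 13 of 38 members were called in the dim group (34.2%), 66 of 84 in the middle (78.6%) and 28 of 32 in the bright group (87.5%). The same shares over all genes were 40.8%, 73.9% and 77.1%. Falls made up 6, 56 and 23 of those calls and rises 7, 10 and 5, where 20.6%, 35.8% and 37.3% of all genes fell and 20.2%, 38.1% and 39.8% rose. The members' median was 0.00 in the dim, -0.14 in the middle and -0.21 in the bright group, beside 0.01 over all genes in each. With pravastatin 3 of 38 (7.89%), 36 of 84 (42.9%) and 19 of 32 (59.4%) were called, beside 17.4%, 45.4% and 54.3% of all genes, and the medians were -0.01, -0.03 and -0.04.

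Across the 154 members, the size of the log2 ratio had a Spearman's rho with signal of 0.51 for SQ1 and 0.40 for pravastatin, against 0.38 and 0.36 across 20395 genes. The signed ratio had a rho of -0.44 and -0.27 across the members and of 0.01 and 0.02 across all genes, and the SE one of 0.08 across the members. These are descriptions across genes that share arrays, and genes are not independent replicates. An offset of 50 was added to both channels before ratios were taken, which by arithmetic draws the ratios of dim spots towards 0. The parts that this offset and nearness to background had in the trend were not tested. The 3 members just inside the detection rule gave ratios between -0.04 and 0.05 with SQ1 and none was called.

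**Figure D4:**
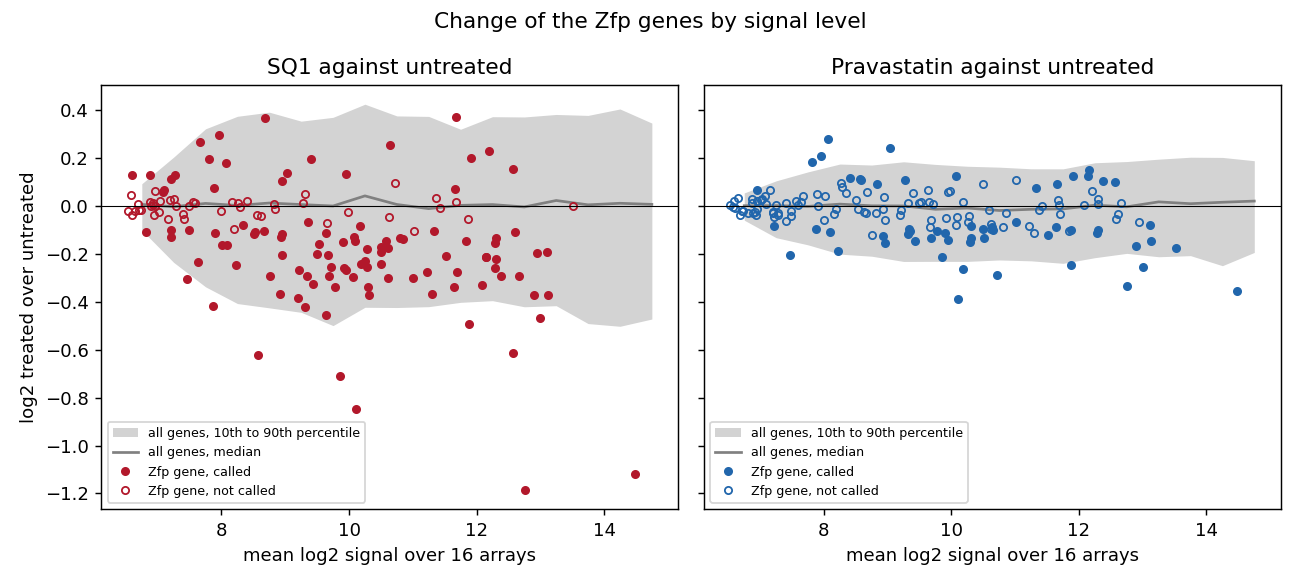
Log2 treated over untreated of 154 Zfp genes against mean log2 signal over 16 arrays, SQ1 left and pravastatin right. Filled points were called and open points were not, the band spans the 10th to 90th percentile and the line the median of all genes in bins of 0.5. Zfp genes below a signal of about 7.77 lie around 0, and with SQ1 most brighter ones lie below the line for all genes.

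**Figure D5:**
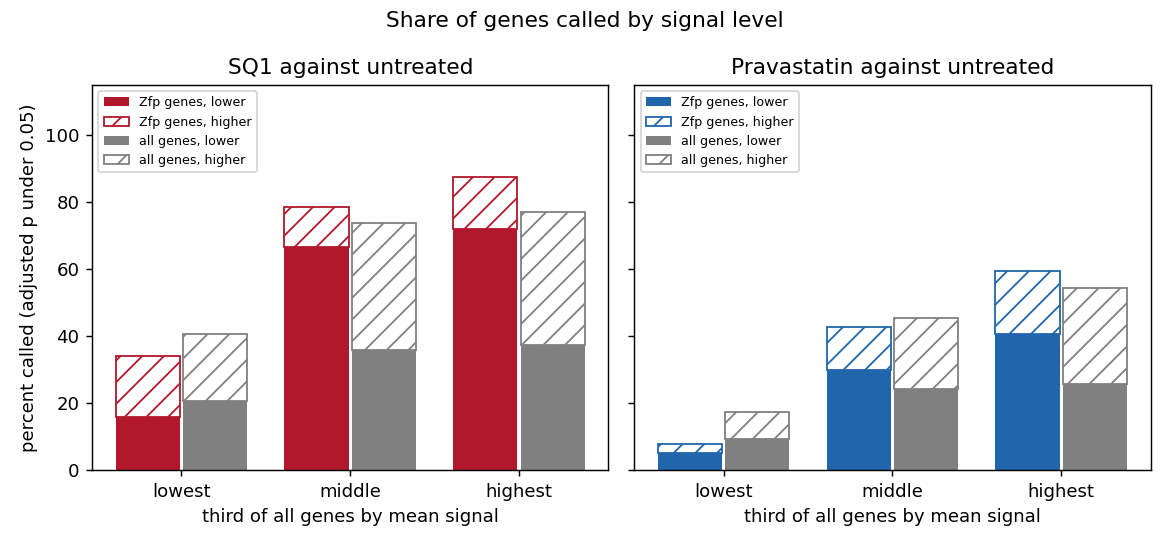
Percent of Zfp genes (coloured) and of all genes (grey) called at an adjusted p under 0.05 in each of the 3 signal groups, SQ1 left and pravastatin right, bars from 0. The solid part is lower and the hatched part higher in treated cells, and for SQ1 the solid part reaches 71.9% of Zfp genes and 37.3% of all genes in the bright group.

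Other zinc finger families were measured on the same arrays. Over all genes, 31.2% fell and 32.7% rose with SQ1, and 19.7% and 19.4% with pravastatin. Of 35 Zbtb genes, which pair zinc fingers with a BTB domain, 18 fell (51.4%) and 2 rose (5.71%) with SQ1. Their share called, 57.1%, lay below the 63.9% of all genes. With pravastatin 9 fell (25.7%) and 1 rose (2.86%). Of 8 Zscan or Zkscan genes 5 fell (62.5%) and 0 rose with SQ1 and 1 fell (12.5%) with pravastatin. The 14 Klf genes had 4 falls and 4 rises with SQ1 (28.6% each). With pravastatin they had 1 fall (7.14%) and 3 rises (21.4%). Of 2 Znf genes 1 fell with each drug. The medians with SQ1 were -0.06 for Zbtb, -0.16 for Zscan or Zkscan and 0.02 for Klf.

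By gene order in RefSeq, 62 members lay in 20 runs in which neighbouring members were at most 5 protein-coding genes apart. Of these 36 fell with SQ1 (58.1%), beside 49 of the other 92 (53.3%) and 31.2% of all genes. The run of Zfp180, Zfp112, Zfp111, Zfp61 and Zfp94 had 5 of 5 falls, between -0.33 and -0.14, and that of Zfp26, Zfp426, Zfp266 and Zfp846 had 4 of 4, between -0.61 and -0.11. By contrast, in the run of Zfp786, Zfp398, Zfp282, Zfp956, Zfp777, Zfp746 and Zfp467, 3 of 7 fell. In the runs Zfp418, Zfp772 and Zfp954, Zfp93, Zfp64 and Zfp217, Zfp354c, Zfp879 and Zfp2, and Zfp428 and Zfp575 no member fell, and 2, 1, 1 and 1 rose.

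Of the 154 members, 19 differed between the culture series in their SQ1 ratio (14.9% of all genes did) and 5 in their pravastatin ratio (5.02%). Within the first series 73 members fell with SQ1 and within the second 76. These were 47.4% and 49.4% of the members, beside 24.6% and 30.7% of all genes. In the first series 19 fell with pravastatin and in the second 39, which were 12.3% and 25.3%, beside 10.4% and 21.6% of all genes. In the first series alone, Zfp54 (adjusted p = 0.2877, limma) and Zfp451 (0.07431) also lost their SQ1 call. Pravastatin calls lost there included those of Zfp91 (0.1269), Zfp410 (0.178), Zfp36l2 (0.05414), Zfp64 (0.1596), Zfp322a (0.2396) and Zfp709l1 (0.2108). The series coincide with scan days and slides and cannot be told apart from them. Of the 29 members with more than 1 passing probe, the probes' SQ1 ratios differed by a median of 0.08 and by 0.71 at most, in Zfp395.

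Markers of the cell types in such cultures moved with the drugs as well. For comparison, 31.2% of all genes fell and 32.7% rose with SQ1, and 19.7% and 19.4% with pravastatin. With SQ1, 10 of 10 hepatocyte, 14 of 14 macrophage, 10 of 10 stellate cell and fibroblast, 3 of 4 endothelial and 2 of 5 cholangiocyte markers fell, and 1 cholangiocyte marker rose. With pravastatin, 8 of 10 hepatocyte, 14 of 14 macrophage, 4 of 10 stellate cell and fibroblast, 1 of 4 endothelial and 1 of 5 cholangiocyte markers fell, while 2 hepatocyte and 2 cholangiocyte markers rose. The summed signal of the hepatocyte markers was 656000 to 1160000 in SQ1-treated and 1160000 to 1760000 in untreated cultures, and that of the macrophage markers 33400 to 56200 and 48100 to 93900. On pravastatin arrays the hepatocyte sum was 724000 to 981000 in treated and 721000 to 1190000 in untreated cultures, and the macrophage sum 21300 to 33600 and 36400 to 63100. The stellate cell and fibroblast sum was 14300 to 22700 in SQ1-treated and 24400 to 33300 in untreated cultures, the endothelial sum 556 to 1070 and 853 to 1840, and the cholangiocyte sum 20100 to 29900 and 13600 to 21600. With pravastatin these 3 sums were 15700 to 21800, 498 to 1730 and 11700 to 19900 in treated cultures, and 16500 to 23400, 539 to 1230 and 9550 to 15800 in untreated ones. Timd4, Lum, Stab2, Tek, Vwf, Sox9 and Muc1 were not among the genes tested. All 10 hepatocyte markers were measured, as the labelled cell type requires. In such bulk RNA, fewer cells of a type and less RNA per cell cannot be told apart, and the part of these markers in the members' changes was not tested.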

How the data were processed

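Transcripts were measured on 16 two-colour Agilent arrays of primary rat hepatocytes, 8 per drug. The authors' scanner files, per the file headers made with Feature Extraction version 10.7.1.1, give each spot's median signal and local background as intensity in arbitrary units and the log10 of red over green processed signal. The deposited value table holds log2 ratios of treated over untreated. Each column matched the array with its number under the opposite drug (r of 0.999 to 1) rather than its own label (0.45 to 0.562). Groups follow the labels and scanner files, and the table served as an alternative only, with its columns matched to the arrays. Which source names the drugs correctly was not tested. If the table does, the drug names change places in every result. Array medians were 588 to 663 and 790 to 1076 over backgrounds of 306 to 315 and 339 to 348, and 71.3% to 86.2% of A555 and 72.4% to 85.2% of A647 spots were well above background. The number of arrays limits precision.

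Median signals were used because mean signals, which had been planned, are not among the columns. Background was removed by normexp with an offset of 50, and loess within each array gave control spots no weight (limma 3.58.1 under R 4.3.3). Non-uniform spots (0 to 28 per array) were left out and no spot was saturated. Duplicate spots were averaged, and the brightest probe well above background in at least 6 of 32 channels stood for a gene. Symbols come from RefSeq accessions through the GRCr8 annotation, which named 17998 of 30367 probes. One model with terms for SQ1, pravastatin and dye was fitted over all genes, with two-sided Benjamini-Hochberg adjusted p. It was checked on simulated data with independent noise on each array, so the check does not cover correlated arrays. Deviations from the group means correlated at 0.138 to 0.629 between arrays with 1 number. The best correlation with an array of another number was 0.19 to 0.391, and was the higher value for replicates 2, 7 and 8. Pairing was thus read mainly from the shared control numbers, and blocks were fitted as alternatives (random block correlation 0.394). The other alternatives changed signal, normalisation, filter, probe, batch, slide and replicates.

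Genes named are the 8 largest rises and falls per comparison that were called and of 1 sign on all 8 arrays, genes of a role list, and those next to the detection limit. The members, the role lists (KRAB, CCCH, activators and cofactors, ribosome and RNA handling, ligases), the corepressor, AU-rich decay and marker lists were chosen with earlier results of these data known. The values of 1 gene of these lists and the matches of 1 promoter motif are not reported here.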

Additional observations from a re-analysis of the deposited data

Results flagged for a closer look

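Of 86 groups of 8 arrays, 2 had an array far from the others, where chance gives about 1 in 20. The SQ1 ratio of Zfp451 was 0.18 on replicate 1, against -0.14 on the next highest array. The pravastatin ratio of Zfp428 was 0.00565 on replicate 1, against 0.18 on the next lowest array.

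Ratios that differed between the culture series, given as second minus first, were -0.49 for Zfp52, -0.37 for Zfp36, -0.32 for Zfp395, -0.29 for Zfp36l1, -0.20 for Zfp90, -0.18 for Zfp260, -0.16 for Zfp131 and -0.13 for Zfp422 with SQ1. The differences were 0.15 for Zfp36l2, 0.18 for Zfp622 and 0.20 for Zfp703 with SQ1. With pravastatin they were -0.34 for Zfp52 and 0.16 for Zfp143. These 13 genes and drugs had an adjusted p under 0.05 in limma, 3.849e-05 for Zfp52 with SQ1 and 0.04823 for Zfp131 at the other end. Series, scan day and slide cannot be told apart.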

How the results depend on the processing

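Counts of calls stayed within 1.5 times the reported ones except as given here. Arrays scaled to a common spread gave 48 SQ1 calls (9 up, 39 down, median -0.0804), 24 pravastatin falls and 20 calls of the difference (4 up, 16 down, median -0.00606). Members called in that setting were 31.2% with SQ1 and 13% for the difference, beside 31.8% and 12.5% of all genes. There the differences of Zfp524 (-0.12), Zfp148 (0.0434), Zfp281 (0.147), Zfp422 (0.0627) and Zfp592 (0.0933) changed sign, none called. Median centring gave 38 pravastatin calls, 11 of them rises, with a median of -0.0416. The first culture series alone, with fewer arrays, gave 26 pravastatin calls (7 up, 19 down) and 45 of the difference, 4 up. A slide block gave 38 pravastatin calls, 10 of them up. The replicate block gave 106 SQ1, 56 pravastatin and 86 difference calls when random and 97, 45 and 84 when fixed, with 11 pravastatin rises. It changed further calls only of Zfp384, Zfp597, Zfp609, Zfp703, Zfp709l1, Zfp90 and Zfp410 among the named genes. Called shares in the lowest signal group were 54.3% (SQ1) and 25.9% (pravastatin) with 2 signal groups, and 17.6% for SQ1 with 5, where the brightest held 100% for pravastatin, of 5 members. Without single replicates the counts were 99 to 106 (20 to 21 up, 79 to 85 down) for SQ1, 48 to 55 (14 to 18, 34 to 39) for pravastatin and 65 to 71 (9 to 11, 55 to 62) for the difference, with medians of -0.12 to -0.10, -0.03 to -0.02 and -0.10 to -0.08. Of the refits of named genes, 1972 kept a call and its direction, 155 lost it with the same sign, 5 lost it and changed sign, and 16 gained one. In 860 the gene was called in neither fit, and 95 of these changed sign. Refits on the deposited table, which repeat those on the scanner files' processed signals, are among all these counts. Other causes were not tested.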
